A study of Homo sapiens with 4 samples.

Results

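The cells described here are the OVCA420 cells of the 7-day library with the most and with the least mRNA of *CXCL8* (ENSG00000169429, chr4:73740519-73743716 on GRCh38, plus strand), the gene of interleukin 8. OVCA420 is an established human ovarian cancer cell line. Cells were left untreated (Ctrl) or given 10 ng/mL TGF-β1, a cytokine that drives epithelial-mesenchymal transition (EMT), for 1, 3 or 7 days, and each condition was measured as 1 library of single-cell RNA-seq, in which each unique molecular identifier (UMI) counts 1 captured mRNA molecule. The groups were chosen by their *CXCL8* level. Cells needed over 200 genes and a mitochondrial share of UMIs no higher than 20%. In each such 7-day cell, *CXCL8* UMIs were divided by all UMIs of the cell and multiplied by 10000, and cells at or above the 75th percentile were called CXCL8-high and cells at or below the 25th percentile CXCL8-low. This gave 143 CXCL8-high and 143 CXCL8-low cells among 569 retained 7-day cells, out of 3144 retained cells in the series.

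Interleukin 8 is a secreted chemokine of the ELR-positive CXC family, which attracts neutrophils through the receptors CXCR1 and CXCR2 and is also known to promote blood vessel growth. Epithelial cancer cells, ovarian carcinoma among them, make it when interleukin 1 or tumor necrosis factor acts on them, and its transcription is known to depend on the transcription factors NF-κB, AP-1 and C/EBP, which bind close to the start of the gene. Its relatives *CXCL1*, *CXCL2*, *CXCL3*, *CXCL5*, *CXCL6* and *PPBP* lie beside it on chromosome 4.

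The stretches before the start of *CXCL8* and of 5 further genes are shown because the same letters recur in them. They are RefSeq sequences (GRCh38.p14) from base -200 to base -51 before the RefSeq start, read 5′ to 3′ on the strand of the gene. Capitals mark the NF-κB motif GGAATTTCC or its reverse complement GGAAATTCC and, in *CXCL8* alone, the AP-1 motif TGACTCA, whose reverse complement is TGAGTCA. *CXCL8* is at chr4:73740369-73740518 (plus strand), *CXCL1* at chr4:73869193-73869342 (plus), *CXCL2* at chr4:74099246-74099395 (minus), *CXCL3* at chr4:74038740-74038889 (minus), *ICAM1* at chr19:10270920-10271069 (plus) and *NFKBIA* at chr14:35404800-35404949 (minus).
CXCL8: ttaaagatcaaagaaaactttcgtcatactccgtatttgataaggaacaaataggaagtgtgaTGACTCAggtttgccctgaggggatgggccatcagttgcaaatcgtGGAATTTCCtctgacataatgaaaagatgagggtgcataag
CXCL1: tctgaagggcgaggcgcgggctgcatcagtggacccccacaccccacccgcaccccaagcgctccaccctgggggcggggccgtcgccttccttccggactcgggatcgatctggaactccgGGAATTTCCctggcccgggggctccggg
CXCL2: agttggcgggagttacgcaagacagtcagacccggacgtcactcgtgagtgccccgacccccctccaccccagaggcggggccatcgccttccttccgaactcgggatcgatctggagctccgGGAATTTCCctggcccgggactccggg
CXCL3: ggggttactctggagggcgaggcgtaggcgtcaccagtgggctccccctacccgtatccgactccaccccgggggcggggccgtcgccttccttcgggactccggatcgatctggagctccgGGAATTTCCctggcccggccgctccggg
ICAM1: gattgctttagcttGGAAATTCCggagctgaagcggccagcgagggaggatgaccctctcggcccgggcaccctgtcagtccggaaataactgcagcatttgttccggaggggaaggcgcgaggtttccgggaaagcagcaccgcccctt
NFKBIA: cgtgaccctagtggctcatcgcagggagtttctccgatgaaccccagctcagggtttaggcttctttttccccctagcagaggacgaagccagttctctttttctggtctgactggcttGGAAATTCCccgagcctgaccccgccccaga

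The NF-κB letters began 91 bases before the start in *CXCL8*, 78 in *CXCL1*, 77 in *CXCL2* and 78 in *CXCL3*, and 186 and 81 bases before it in *ICAM1* and *NFKBIA*, where they lie in the reverse orientation. The AP-1 letters of *CXCL8* began 137 bases before its start and do not overlap the NF-κB letters. Over all RefSeq promoters (250 bases before to 50 after a start, both strands searched), 0.461% of 35116 held the NF-κB letters and 4.95% of 35116 the AP-1 letters. A match of letters is a description and not a measured binding site.

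*CXCL8* differed widely between single cells of the 7-day library. CXCL8-high cells held 6.17 to 69.6 *CXCL8* UMIs per 10000 with a median of 9.32, and CXCL8-low cells held 0 to 1.35 with a median of 0.743. Of the 143 CXCL8-low cells, 7 had no *CXCL8* UMI. Just outside the cuts, the nearest cells were at 6.14 below the upper cut and at 1.36 above the lower one, and 42 and 31 cells lay within 10% of the upper and the lower cut, so the groups are the ends of a range of *CXCL8* levels with no gap at the cuts. Whether they hold separate cell types was not tested. Summed over cells, *CXCL8* was at 1160 CPM (UMIs per 1000000 UMIs of the group) in CXCL8-high and at 72.0 CPM in CXCL8-low cells, a difference that the choice of cells fixes.

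**Figure D1:**
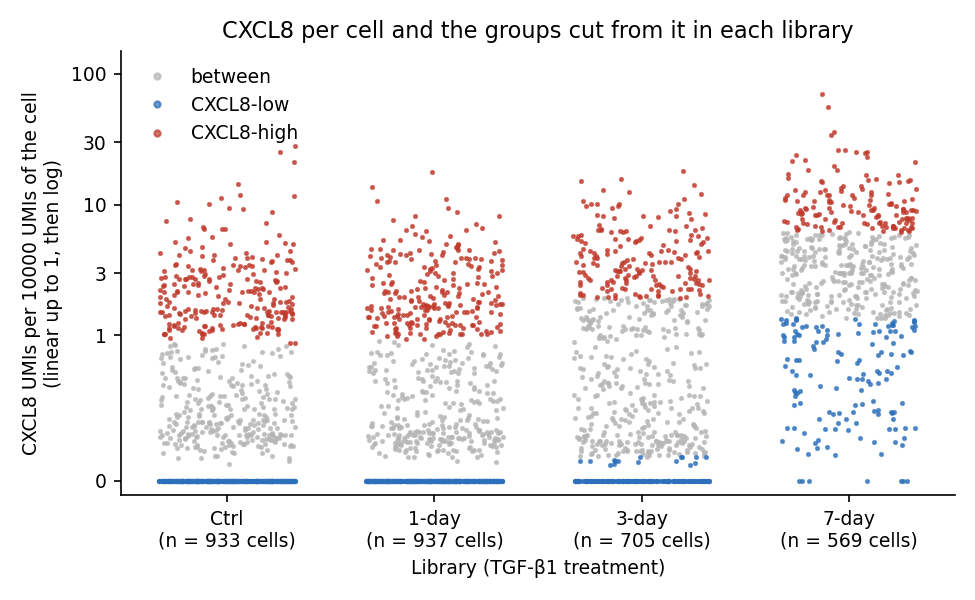
Each point is 1 retained cell, with *CXCL8* UMIs per 10000 UMIs of the cell on the y axis (linear up to 1, then logarithmic) and the library on the x axis, colored by the group cut at the 25th and 75th percentile of its own library. In the 7-day library the groups meet the cells between them at 1.35 and 6.17, and in Ctrl and 1-day the CXCL8-low group is made of the cells with no *CXCL8* UMI.

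The median depth was 46374 UMIs per cell in CXCL8-high and 40824 in CXCL8-low cells, and the rank correlation of the *CXCL8* level with depth was 0.145 over 569 cells. The mitochondrial share had medians of 6.38% and 6.14%, and the doublet caller Scrublet marked 6 and 2 cells, which were kept. Over the series, libraries had 569 to 937 retained cells with medians of 30270 to 43553 UMIs, taken from the first cells in barcode order (572 of 2484 listed barcodes for 7-day), and the 7-day library shared 7, 1 and 3 cell barcodes with Ctrl, 1-day and 3-day. Of 8 markers of ovarian epithelium, *EPCAM*, *KRT7*, *KRT8*, *KRT18* and *KRT19* were high in both groups (279 and 318 CPM for *EPCAM* in CXCL8-high and CXCL8-low cells), while *MUC16*, *WFDC2* and *PAX8* were at or near 0. Summed markers of immune cells were at 19.5 and 18.2 CPM, with 7 and 10 of 14 at 0 and neither *PTPRC* nor *CD3E* detected. Most of their 129 and 110 UMIs were of *CD79A* (58 and 43), *CD68* (38 and 44) and *CSF1R* (27 and 22). Summed markers of fibroblasts were at 0.606 and 0.330 CPM with 6 of 8 at 0 in each group, and those of endothelial cells at 0.909 and 0 CPM with 4 and 6 of 6 at 0.

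CXCL8-high cells carried more mRNA of the chemokines *CXCL1*, *CXCL2*, *CXCL3* and *CCL20*, of *IL1A*, *IL1B* and *IL1RN*, of 11 of 25 compared NF-κB genes and of the EGFR ligands *HBEGF*, *EREG* and *AREG*. They carried less mRNA of 13 of 20 compared proliferation genes. Among 5940 genes other than *CXCL8* with at least 20 CPM in either group, 270 were at least 1.5-fold higher in CXCL8-high cells (4.55%) and 257 at least 1.5-fold lower (4.33%), and the median log2 ratio over all 5940 was -0.04. At least 2-fold differences were seen for 66 genes in the higher and 39 in the lower direction, and 8 genes were at least 4-fold higher. With 1 library there is no test, and cells of 1 library are not replicates. Intervals in parentheses are 95% intervals that cover counting error only.

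**Figure D2:**
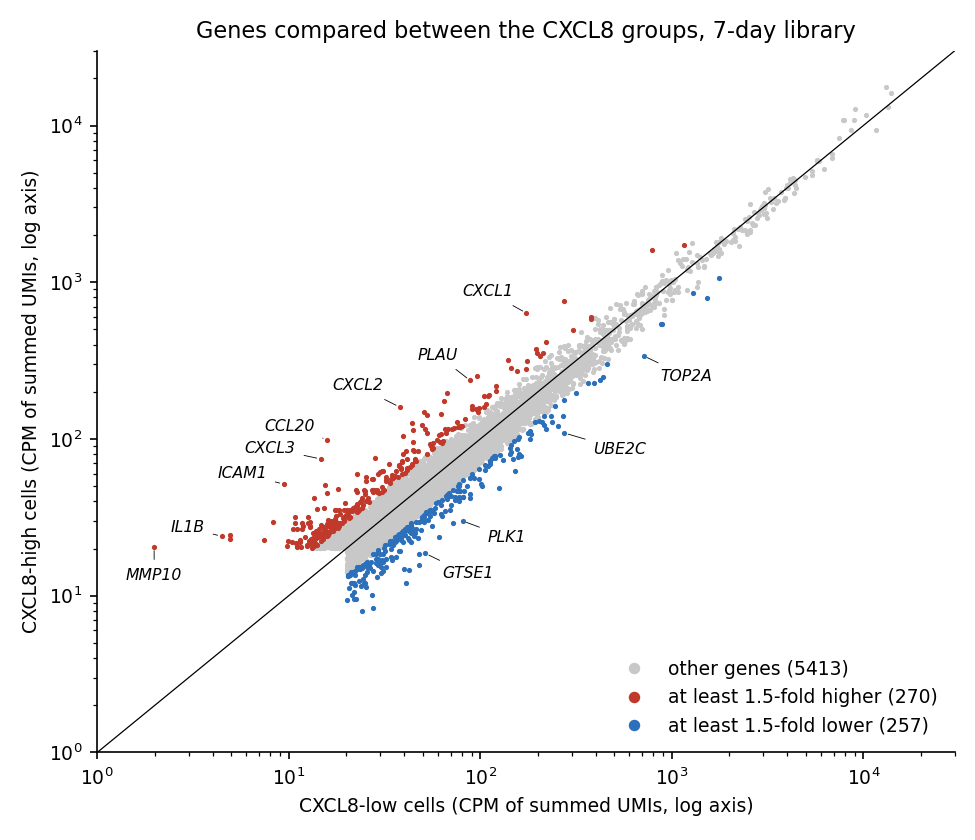
Each point is 1 of the 5940 genes compared, with CPM in the 143 CXCL8-low cells on the x axis and in the 143 CXCL8-high cells on the y axis (both logarithmic, with the line of equal level). Red marks the 270 genes at least 1.5-fold higher and blue the 257 at least 1.5-fold lower, and *CXCL1*, *CXCL2*, *CXCL3*, *CCL20* and *ICAM1* lie above the line while *GTSE1*, *PLK1*, *UBE2C* and *TOP2A* lie below it.

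Of the 6 other ELR-positive chemokines, 4 were high enough to be compared, and 3 of these were past the fold, all higher, with a median log2 ratio of 1.97. *CXCL1* (chr4:73869393-73871308), which binds CXCR2, was at 636 CPM in CXCL8-high and 174 CPM in CXCL8-low cells, a log2 ratio of 1.87 (1.77 to 1.97). *CXCL2* (chr4:74097040-74099196), a CXCR2 ligand as well, was at 160 and 38.0 CPM (log2 ratio 2.07, 1.86 to 2.28). *CXCL3* (chr4:74036589-74038807) was at 74.5 and 14.7 CPM (log2 ratio 2.34, 2.01 to 2.68). These 3 genes are the ones whose upstream stretches are printed above, and each holds the NF-κB letters in the orientation found in *CXCL8*. *CXCL6*, which lies nearest to *CXCL8* among them, differed less, at 29.8 and 22.6 CPM (log2 ratio 0.40, 0.08 to 0.72). *CXCL5* and *PPBP* were under 20 CPM in both groups, with 7.88 and 5.45 CPM for *CXCL5*.

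The levels of single cells showed the same order and a wide overlap. The median *CXCL1* level was 3.93 per 10000 in CXCL8-high and 1.11 in CXCL8-low cells, with the highest cells at 40.3 and 38.3. Of the 143 cells with the highest *CXCL1* level, 65 were CXCL8-high and 13 CXCL8-low. For *CXCL2* these were 69 and 10 of 143, and for *CXCL3* 54 and 15 of 143. After each cell was thinned to 18000 UMIs, 97.1% of CXCL8-high and 82.2% of CXCL8-low cells had a *CXCL1* UMI, and 76.6% and 39.3% had a *CXCL2* UMI.

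Chemokines outside the ELR family differed from gene to gene. *CCL20* (chr2:227805739-227817564), the ligand of CCR6 on T and dendritic cells, had the highest ratio of all genes with at least 50 CPM in either group, at 99.1 against 15.9 CPM (log2 ratio 2.64, 2.33 to 2.97). Of the 143 cells highest in *CCL20*, 65 were CXCL8-high and 14 CXCL8-low. *CCL5*, which attracts T cells, was at 174 and 64.3 CPM (log2 ratio 1.44), but 10 cells held 80.5% of its UMIs in the CXCL8-high group, and the cells with the highest *CCL5* level included 36 cells of each group. *CCL2*, a monocyte attractant, was at 188 and 105 CPM (log2 ratio 0.85) with 62.1% of its CXCL8-high UMIs in 10 cells, and its level over the quartile groups was 105, 56.9, 140 and 188 CPM, so it did not climb in order. *CXCL16* was at 69.7 and 63.9 CPM (log2 ratio 0.12). *CXCL10* was under 20 CPM and is named because of its values: its 64 UMIs in CXCL8-low cells all came from 1 cell, and CXCL8-high cells had 1 UMI. In all, 3 of 4 compared members of this list of 12 were past the fold, all higher, with a median log2 ratio of 1.14.

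Of 21 interleukins and colony-stimulating factors, 8 were compared and 4 were past the fold, all higher, with a median log2 ratio of 0.81. *IL1A* and *IL1B* encode the agonists of the interleukin 1 receptor. *IL1A* was at 123 CPM in CXCL8-high and 49.4 CPM in CXCL8-low cells (log2 ratio 1.32, 1.12 to 1.51), and *IL1B* at 23.9 and 4.46 CPM (log2 ratio 2.42, 1.83 to 3.07). *IL1RN*, the antagonist of the same receptor, was higher as well, at 69.4 and 33.5 CPM (log2 ratio 1.05). *CSF1*, the growth factor of macrophages, was at 59.7 and 22.6 CPM (log2 ratio 1.40). *IL32* (log2 ratio 0.25), *IL18* (0.18) and *CLCF1* (0.56) were under the fold. *IL11*, an IL-6 family cytokine that TGF-β induces, lay on the other side, at 83.5 and 122 CPM (log2 ratio -0.55). *IL6* was under 20 CPM, at 13.3 and 4.79 CPM.

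No UMI of *CXCR1*, *CXCR2* or *ACKR1*, which bind interleukin 8 at the cell surface, was counted in either group, which does not show that their mRNA was absent. The syndecans *SDC4* (126 and 91.4 CPM, log2 ratio 0.46) and *SDC1* (585 and 497 CPM, 0.23), whose heparan sulfate chains hold chemokines, were under the fold. Of 26 receptors and adaptors upstream of NF-κB, 8 were compared and 2 were past the fold, *TNFRSF10B* (the TRAIL receptor DR5, log2 ratio 0.88) and *TNFRSF21* (DR6, 0.77). The interleukin 1 receptor *IL1R1* was at 3.03 and 0.991 CPM.

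Among 30 genes of NF-κB subunits and their feedback targets, 25 were compared, 11 were past the fold, all higher, and the median log2 ratio was 0.41. The subunits and the targets differed. *NFKB1* was at 77.6 CPM in CXCL8-high and 77.5 CPM in CXCL8-low cells, *RELA* at 60.9 and 55.0, *RELB* at 64.4 and 63.8 and *REL* at 54.7 and 48.6, and only *NFKB2* of the subunits was past the fold, at 20.2 and 13.2 CPM (log2 ratio 0.61, 0.20 to 1.03). *ICAM1* (chr19:10271093-10286615), the adhesion molecule that leukocytes bind, was at 51.5 and 9.42 CPM (log2 ratio 2.45, 2.04 to 2.88). *NFKBIZ*, an inducible nuclear IκB protein, was at 31.8 and 10.7 CPM (log2 ratio 1.57), *SOD2*, the mitochondrial superoxide dismutase, at 143 and 52.5 CPM (1.44), and *TNF* at 47.7 and 18.01 CPM (1.41).

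The inhibitors of the pathway did not move as 1 group. *TNFAIP3*, which encodes the deubiquitinase A20, was at 54.2 and 25.4 CPM (log2 ratio 1.09, 0.82 to 1.37), and *ZC3H12A*, the RNase that degrades cytokine mRNAs, at 62.7 and 36.2 CPM (0.79). *NFKBIA*, which encodes IκBα and whose upstream stretch holds the NF-κB letters too, was under the fold at 104 and 82.4 CPM (log2 ratio 0.34, 0.17 to 0.51), and its levels over the quartile groups were 82.4, 71.6, 83.6 and 104 CPM. In the selections of cells described further on, *NFKBIA* was past the fold, with log2 ratios of 0.95 in G1 cells and 0.96 in cells of low proliferation share, and *NFKBIE*, the gene of IκBε, went from 0.34 to 0.76 and 0.62. *TNFAIP2*, *BIRC3*, *TNFAIP8* and *TRAF1* had log2 ratios of 0.59 to 0.90, and *TNIP1*, *TNIP2*, *NFKBIB* and *TRAF2* of -0.32 to 0.16.

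Of 14 AP-1 and C/EBP factors, 10 were compared and 3 were past the fold, all higher, with a median log2 ratio of 0.36. *CEBPD* was at 22.7 and 11.4 CPM (log2 ratio 1.00), *ATF3* at 24.1 and 14.04 (0.78) and *JUND* at 35.5 and 23.3 (0.61). *JUN* (108 and 113 CPM) and *JUNB* (214 and 222 CPM) had intervals of the ratio that include 0, and *FOSL1* was at 77.4 and 100 CPM (log2 ratio -0.37). Of 9 compared immediate early genes only the phosphatase gene *DUSP1* was past the fold (28.6 and 15.9 CPM), and of 9 compared genes of MAPK feedback 3 were, *DUSP5* (47.0 and 22.5 CPM), *DUSP10* (23.5 and 13.9 CPM) and *DUSP6* (66.1 and 43.0 CPM).

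**Figure D3:**
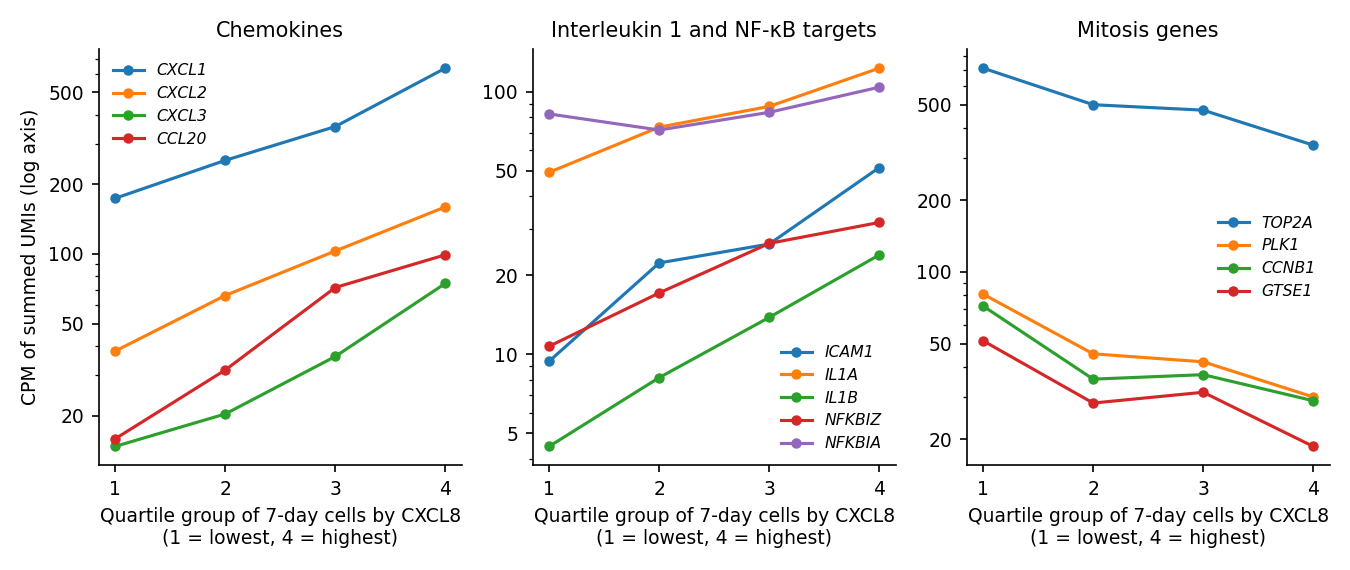
CPM of summed UMIs (logarithmic y axis) is shown for the 4 quartile groups of the 7-day cells by *CXCL8* level (141 to 143 cells each, group 1 lowest), with 1 line per gene. *CXCL1*, *CXCL2*, *CXCL3*, *CCL20*, *ICAM1*, *IL1A*, *IL1B* and *NFKBIZ* climb at each step, *NFKBIA* does not, and *TOP2A* and *PLK1* go down at each step. *CCNB1* and *GTSE1* do not go down at each step.

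Most genes past the fold also followed *CXCL8* over the cells between the ends. In 4 quartile groups of 143, 142, 141 and 143 cells, *CXCL1* was at 174, 254, 355 and 636 CPM, *CCL20* at 15.9, 31.5, 71.6 and 99.1 CPM, and *IL1B* at 4.46, 8.16, 13.8 and 23.9 CPM. Of the 270 higher genes, 189 climbed at each of the 3 steps (70.0%), and of the 257 lower genes 188 went down at each (73.2%). Over all 5940 genes, 12.2% climbed and 17.3% went down at each step. Since the end groups take part in both the choice and the order, these shares are descriptions. *CCL5* (64.3, 78.7, 69.6 and 174 CPM) and *MMP10* (1.98, 13.7, 4.02 and 20.6 CPM) were among the genes out of order. Of the named genes past the fold, 42 of 57 higher and 11 of 16 lower ones kept the order. *NFKB2*, *ATF3*, *JUND*, *DUSP1*, *TNFAIP2*, *ITGA5* and *ELF3* were among the higher ones that did not. *GTSE1*, *CCNB1* and *UBE2C* were among such lower ones. The genes most like *CXCL8* over single cells, by the rank correlation of log-normalized levels in 569 cells among 2879 genes, were *CXCL1* (0.42), *CXCL2* (0.41), *IL1A* (0.39), *HBEGF* (0.39), *CCL20* (0.37), *EREG* (0.36), *FXYD3* (0.34), *SAT1* (0.33), *AREG* (0.33) and *MT-CO1* (0.32). These cells share 1 library and each level has the depth of its cell as denominator.

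Among 10 ligands and receptors of the EGFR family, 7 were compared and 3 were past the fold, all of them ligands. *HBEGF* was at 148 CPM in CXCL8-high and 51.0 CPM in CXCL8-low cells (log2 ratio 1.53, 1.35 to 1.72), *EREG* at 126 and 43.8 CPM (1.53) and *AREG* at 1603 and 790 CPM (1.02, 0.97 to 1.07). *TGFA* (168 and 123 CPM) was under the fold, as were the receptors *EGFR* (213 and 181 CPM) and *ERBB2* (43.0 and 32.5 CPM). *EREG* and *AREG* lie on chromosome 4 too, 625 and 705 kb from *CXCL8*. Between them and the chemokines lies *MTHFD2L*, at 23.3 and 18.8 CPM (log2 ratio 0.31), and on the other side of *CXCL8* the genes *ANKRD17* (log2 ratio 0.11) and *RASSF6* (0.87) were above 20 CPM, so genes under and past the fold alternate along this stretch.

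Enzymes that cut the matrix were higher in part. *PLAU*, the urokinase gene, was at 236 and 88.5 CPM (log2 ratio 1.42, 1.27 to 1.56), whereas its receptor *PLAUR* (156 and 145 CPM) had a log2 ratio of 0.10. *MMP9*, a gelatinase, was at 116 and 71.5 CPM (log2 ratio 0.69). *MMP10* (stromelysin 2) was at 20.6 and 1.98 CPM (log2 ratio 3.38, 2.53 to 4.37), with 82.4% of its CXCL8-high UMIs in 10 cells. *TIMP2*, which encodes an inhibitor of metalloproteinases and not an enzyme, was higher too (66.97 and 37.8 CPM). With it, 4 of 10 compared members of this list of 17 were past the fold, all higher. The prostaglandin synthesis genes *PTGS2* (84.2 and 47.4 CPM, log2 ratio 0.83) and *PTGES* (log2 ratio 0.85) were past the fold as well, 2 of 4 compared.

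TGF-β had been given to all of these cells, and the genes of its response differed in part. Of 31 genes of TGF-β response and EMT, 19 were compared, 6 were past the fold, all higher, and the median log2 ratio was 0.24. Of those 6, 3 encode integrin chains, *ITGB6* at 318 and 139 CPM (log2 ratio 1.19), *ITGA5* at 47.4 and 24.8 (0.94) and *ITGAV* at 316 and 176 (0.84), and 3 encode matrix proteins, *FN1* at 278 and 173, *THBS1* at 597 and 377 and *TNC* at 87.9 and 56.3 CPM. *PMEPA1* (984 and 915 CPM), *TPM1* (718 and 707 CPM) and *SNAI2* (35.5 and 38.3 CPM) differed little, and *LGALS1* was at 124 and 184 CPM (log2 ratio -0.57). The epithelial adhesion gene *CDH1* was higher in the CXCL8-high cells, at 106 and 61.0 CPM (log2 ratio 0.80), as was the epithelial transcription factor gene *ELF3* (71.4 and 39.0 CPM). With *SPP1* they were the 3 genes past the fold, all higher, among 14 compared of 24 epithelial and ovarian carcinoma genes. The median log2 ratio of that list was 0.098, and its lowest members were *TJP1* (-0.45) and *CLDN7* (-0.26). Among G1 cells alone, *ITGB6* (0.54), *ITGA5* (0.14) and *CDH1* (0.36) were under the fold. In cells of low proliferation share, *ITGB6* (0.79), *ITGA5* (0.88) and *CDH1* (0.62) stayed past it.

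Other leading genes were *LOXL4*, a lysyl oxidase that crosslinks collagen (50.8 and 15.5 CPM), *ANKRD1*, a YAP target (197 and 66.9 CPM), *IGFL1* (755 and 275 CPM), the keratin gene *KRT6A* (105 and 39.6 CPM) and *CST4*, a cystatin (75.3 and 28.2 CPM, with 60.4% of CXCL8-high UMIs in 10 cells). *G0S2*, a lipolysis inhibitor, was at 252 and 96.5 CPM with 74.2% in 10 cells. *NEAT1*, the nuclear RNA of paraspeckles, was at 414 and 220 CPM (log2 ratio 0.91). Interferon-stimulated genes (5 compared), HLA class I and peptide loading genes (8), checkpoint ligands (4), heat shock chaperones (10) and mitochondrially encoded genes (13) had no member past the fold, with list medians of -0.22 to 0.28. *CD274* (PD-L1) was at 12.3 and 10.1 CPM, *COL1A1* had a log2 ratio of 0.30 (-0.15 to 0.75) and *LGALS3* was at 99.7 and 83.6 CPM.

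The genes with the lowest ratios included many that act in cell division. All 15 genes with the lowest ratios among those of at least 50 CPM were at least 2-fold lower, and the proliferation list makes up 13 of the 257 genes past the fold. *GTSE1*, a G2 and S phase gene, was at 18.6 CPM in CXCL8-high and 51.5 CPM in CXCL8-low cells (log2 ratio -1.47, -1.78 to -1.16), the mitotic kinase gene *PLK1* was 2.69-fold lower (-1.43), the cyclin gene *CCNB1* was at 28.9 and 72.0 CPM (-1.32) and *UBE2C*, which acts in cyclin destruction, at 109 and 274 CPM (-1.33). *TOP2A*, the topoisomerase of dividing cells, was at 339 and 712 CPM (log2 ratio -1.07, -1.14 to -0.996), and *MKI67* at 51.4 and 101 CPM (-0.98). Of 21 proliferation genes, 20 were compared, 13 were past the fold, all lower, and the median log2 ratio was -0.83. The DNA replication genes *PCNA*, *MCM2*, *MCM3* and *MCM5* among them differed less, with log2 ratios of -0.47 to -0.32, and *CCND1* was at 609 and 590 CPM. *TK1* and *TYMS* were among the 13 past the fold. Of 8 compared CDK inhibitors and p53 targets, 4 were past the fold, all higher, among them *CDKN1A* (219 and 121 CPM), *CDKN2B* (39.1 and 19.7 CPM) and *GDF15* (114 and 44.4 CPM), while *CDKN2A* was at 492 and 583 CPM.

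Phase calls moved with the groups. Of CXCL8-high cells 51.0% were called G1 (42.6% to 59.5%) and 29.4% G2/M (22.1% to 37.6%), against 28.7% (21.4% to 36.8%) and 49.7% (41.2% to 58.1%) of CXCL8-low cells. With cells thinned to 18000 UMIs and the groups cut again, 47.3% and 20.3% were G1 and 31.1% and 52.9% G2/M. Summed by phase, *CXCL8* was at 627 CPM in 220 G1 cells, 420 CPM in 125 S cells and 389 CPM in 224 G2/M cells.

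The groups were also cut within selections of cells. *CXCL1*, *CXCL2*, *CXCL3*, *CCL20* and *CCL2* stayed past the fold in both selections. *CCL5* stayed past it in cells of low proliferation share (1.07) but not in G1 cells. *CXCL6* was under it in all cells and in cells of low proliferation share (0.039). In G1 cells *CXCL6* was past the fold in the lower direction (-0.77). When the groups were cut among the 220 G1 cells alone (55 cells each), log2 ratios were 1.62 for *CXCL1*, 2.28 for *CXCL2*, 2.71 for *CXCL3*, 2.90 for *CCL20*, 2.04 for *ICAM1* and 2.40 for *IL1B*, and 12 of 25 compared NF-κB genes were past the fold, all higher. Among the 285 cells with the lower share of UMIs on proliferation genes (a selection added after the data were seen, 72 cells each), they were 1.70, 2.47, 2.48, 2.58, 2.45 and 2.52, and again 12 of 25 NF-κB genes were past the fold. Of the 57 named genes past the fold in the higher direction, 35 stayed past it in G1 cells and 47 in cells of low proliferation share. In G1 cells the stress response genes *ATF3* (-0.31), *DDIT3* (-0.082) and *SESN2* (-0.11) and also *CST4* (-0.077) and *TNFAIP8* (-0.027) changed sign, *AREG* went from 1.02 to 0.39, *GDF15* from 1.36 to 0.55, *CCL5* from 1.44 to 0.32 and *CXCL6* from 0.40 to -0.77. In cells of low proliferation share, *CST4* (0.84), *GDF15* (0.86) and *AREG* (0.59) stayed past the fold. There *ATF3* (-0.036), *DDIT3* (0.20), *SESN2* (0.15) and *TNFAIP8* (0.22) did not. Over all genes compared, 4.08% of 5766 were past the fold in the higher and 6.49% in the lower direction in G1 cells. In cells of low proliferation share these were 4.66% and 6.30% of 5793. Of CDK inhibitors and p53 targets, 4 of 8 compared were past the fold in the higher direction in all cells. In G1 cells 0 of 9 were, which is near the share over all genes there. Of this list, *GDF15* (0.86) and *TNFRSF10B* (0.77) stayed past the fold in cells of low proliferation share, and *CDKN2B* (0.53) did not. The part of the phase in these ratios was not tested further. Of the 16 named genes past the fold in the lower direction, 12 stayed past it in G1 cells and 10 in cells of low proliferation share. *TOP2A* (-1.74), *GTSE1* (-2.39), *MKI67* (-1.58), *PTTG1* (-1.97) and *CDKN3* (-2.22) had lower ratios in G1 cells than over all cells, so the G1 selection did not even out these genes. *CKS2* (-0.043), *AURKA* (-0.22), *UBE2C* (-0.41) and *PLK1* (-0.58) were under the fold there, and in cells of low proliferation share *AURKA* (-0.031), *UBE2C* (-0.20), *CKS2* (-0.24), *KIF23* (-0.24), *TPX2* (-0.50) and *PLK1* (0.38) were not past it either. G1 calls and the proliferation share are themselves made from cell cycle genes. Ratios of such genes in these selections are therefore not independent of the choice of cells. To even depth, *CXCL8* was also cut within 5 bins of depth (median UMIs 43916 and 43382). *CXCL1* (log2 ratio 1.88), *CCL20* (2.66) and *ICAM1* (2.12) stayed past the fold there, and *CXCL6* (0.47) and *CXCL16* (0.063) stayed under it.

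**Figure D4:**
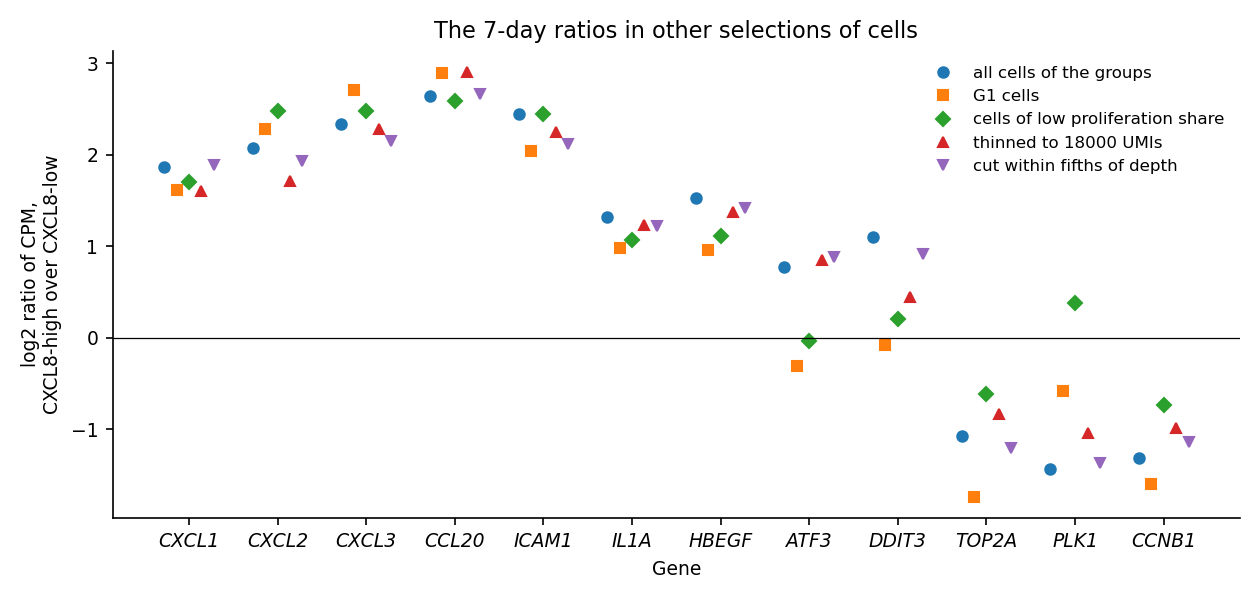
The log2 ratio of CXCL8-high to CXCL8-low CPM (y axis) is shown for 12 genes in the groups as first cut and in 4 other selections of 7-day cells, 1 symbol per selection. The 7 genes from *CXCL1* to *HBEGF* lie above 0 in all 5, *ATF3* and *DDIT3* lie below 0 in G1 cells, and *PLK1* lies above 0 in the cells of low proliferation share.

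The other libraries, whose cells did not enter the 7-day rule, were cut in the same way. Over whole libraries, the *CXCL8* level was 87.3 (Ctrl), 85.4 (1-day), 157 (3-day) and 487 CPM (7-day). In Ctrl and 1-day the 25th percentile was 0, so that CXCL8-low there means the 418 and 421 cells with no *CXCL8* UMI. At 3-day it was 0.166 per 10000, and 161 cells had no *CXCL8* UMI, beside 177 cells in the CXCL8-low group. *CXCL8* in CXCL8-low cells was at 2.20 CPM at 3-day and at 72.0 CPM at 7-day. Ratios in Ctrl, 1-day and 3-day are therefore not on the same footing as at 7-day. *CXCL1* was at 248 and 46.8 CPM in CXCL8-high and CXCL8-low cells of Ctrl, 112 and 10.2 CPM at 1-day and 195 and 21.8 CPM at 3-day, with log2 ratios of 2.40, 3.46 and 3.16 beside 1.87 at 7-day. *CXCL1* in CXCL8-low cells was thus higher at 7-day (174 CPM) than in the CXCL8-low cells of the 3 other libraries. For *CCL20* the log2 ratios were 2.35, 1.90 and 3.06 beside 2.64. *NFKBIA*, under the fold in all 7-day cells but at 0.95 in 7-day G1 cells, had log2 ratios of 1.19 (1.00 to 1.39), 1.20 (0.97 to 1.42) and 1.17 (0.99 to 1.35) in Ctrl, 1-day and 3-day, and its CXCL8-low level was 29.5, 20.2 and 49.2 CPM there beside 82.4 CPM at 7-day. *TNF* rested on 5 and 0 UMIs in Ctrl and was at 41.9 and 2.61 CPM at 3-day (log2 ratio 4.005).

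Of the 15 genes highest at 7-day, 9 could be compared in Ctrl, 8 at 1-day and 14 at 3-day, and all of these were higher in the CXCL8-high cells, 8, 5 and 13 of them past the fold. Of the 15 lowest, 14 of 15, 13 of 13 and 15 of 15 compared were lower, 7, 12 and 15 past the fold. Over all genes compared, 40 (0.726%), 85 (1.59%) and 122 (2.15%) were past the fold in the lower direction in Ctrl, 1-day and 3-day. The genes past the fold in CXCL8-high cells over all those compared were 284 of 5506 in Ctrl (5.16%), 52 of 5361 at 1-day (0.970%) and 139 of 5686 at 3-day (2.44%), and 70, 24 and 82 of these were also among the 270 at 7-day. *MMP10* (-1.20), *G0S2* (-1.03) and *CST4* (-0.48) lay on the other side at 1-day, but each was under 20 CPM in both groups there and was not among the genes compared. Each library is 1 sample, so these values stand side by side with no test.

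**Figure D5:**
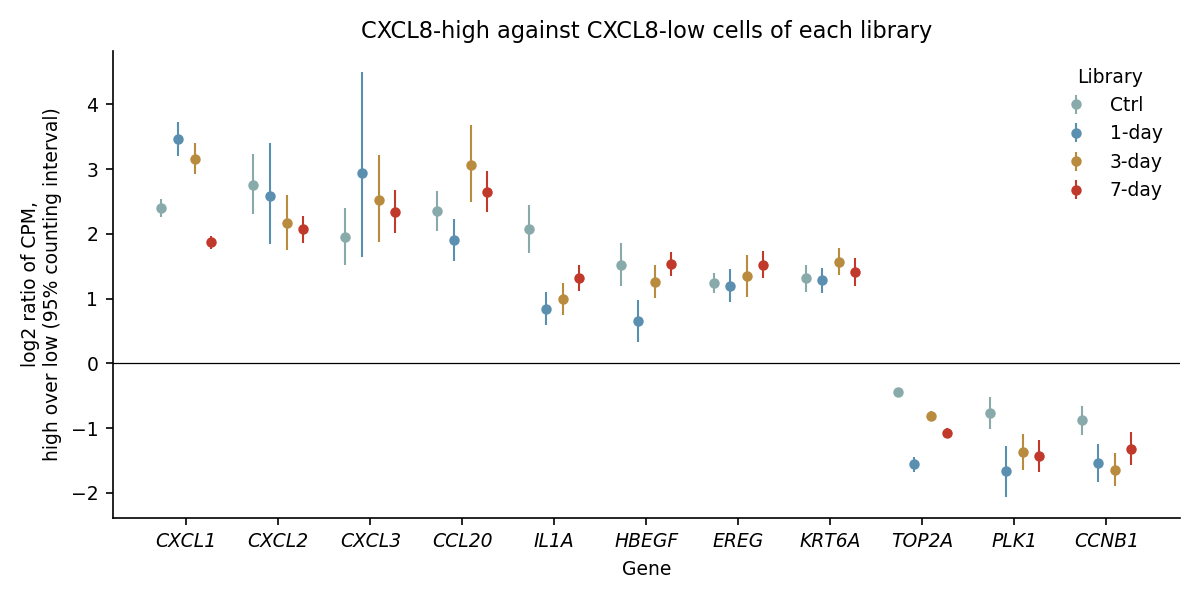
The log2 ratio of CXCL8-high to CXCL8-low CPM (y axis, bars are 95% counting intervals) is shown for 11 genes, each with 1 point per library. The 8 genes from *CXCL1* to *KRT6A* lie above 0 and *TOP2A*, *PLK1* and *CCNB1* below 0 in all 4 libraries, with CXCL8-low made of cells without a *CXCL8* UMI in Ctrl and 1-day. Points under 20 CPM in both groups are plotted too, among them *CXCL2*, *CXCL3* and *HBEGF* at 1-day and *CXCL3* at 3-day.

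The upstream letters shown above were counted over the compared genes that had a RefSeq promoter. The NF-κB letters were found for 8 of 201 genes past the fold in the higher direction (3.98%), for 1 of 214 in the lower direction (0.467%) and for 33 of 4912 compared genes (0.672%). The 8 genes were *CXCL1*, *CXCL2*, *CXCL3*, *ICAM1*, *NFKBIZ*, *DUSP6*, *MBNL2* and *PLLP*. The letters are those of the *CXCL8* stretch itself. *CXCL1*, *CXCL2* and *CXCL3* are related neighbors whose stretches are alike around the letters, so the 8 genes are not independent of each other. The AP-1 letters were found for 18 of 201 (8.96%), 5 of 214 (2.34%) and 239 of 4912 (4.87%), and *IL1A*, *IL1RN*, *ITGA5* and *DDIT3* were among the 18. *CCL20* and *IL1B* did not hold the NF-κB letters in this window, which says nothing about the factor.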

How the data were processed

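Per the labels, OVCA420 cells were processed with the 10x Genomics 3′ kit, and the authors made the deposited counts (whole UMIs per gene and cell, not normalized) with Cell Ranger 2.0.1 on GRCh38. The matrices used here end before the last listed barcode, so complete cells only were read (572 of 2484 at 7-day), and sums are not the full depth. Cells with 200 or fewer genes (0 cells) or more than 20% mitochondrial UMIs (3 cells at 7-day) were removed. UMIs were summed per group and scaled to CPM. Genes with at least 20 CPM in either group were compared and called at 1.5-fold. CPM has exact Poisson, log2 ratios exact conditional and shares exact binomial (Clopper-Pearson) 95% intervals, for counting error only, and a group without a UMI was set to 3 UMIs. Phases were called from 43 S and 54 G2/M genes (Seurat 5.3.0) in scanpy 1.11.5, which also ran Scrublet. Of 33694 gene identifiers, 32807 matched a current symbol, and positions are from GENCODE by identifier. The comparison of summed counts was tested on simulated Poisson counts without spread between cells. The choice of cells, thinning and phase calls were not part of that test. No test was made, since each condition has 1 library. The groups, 33 gene lists and the rule for named genes (the 15 highest and 15 lowest genes with at least 50 CPM, all compared members of the chemokine, interleukin, NF-κB and AP-1 lists, the 2 highest and 2 lowest of each other list, the 10 nearest by rank correlation and 7 set genes) were chosen with earlier results of these data known, and other members named are given for their role. Alternatives covered cell limits, depth, percentiles, phase, scaling, filters, parts of the library and the other libraries.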

Additional observations from a re-analysis of the deposited data

How the results depend on the processing

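No paired analysis was possible because no condition has a second library. The counts of genes at least 1.5-fold higher (270) and lower (257) in CXCL8-high cells moved by over 1.5 times with the percentiles (538 and 758 at the 10th and 90th, 155 lower at the 33rd and 67th), with the filter (2232 and 1703 with 3 UMIs only, 56 and 57 with 100 CPM), in the later barcodes of the library (459 lower), and with the rule applied to Ctrl (40 lower), 1-day (52 and 85) and 3-day (139 and 122). The filter also sets how many genes are compared. Shares were 14.7% and 11.2% of 15156 with 3 UMIs only, and 3.48% and 3.54% of 1609 with 100 CPM. They were 4.55% and 4.33% of 5940 in the main comparison. At the 10th and 90th percentile they were 8.78% and 12.4%. Lower shares were 2.61% at the 33rd and 67th, 7.62% in the later barcodes and 0.726% in Ctrl. At 1-day the shares were 0.970% and 1.59%, and at 3-day 2.44% and 2.15%. Within 7-day, G1 cells gave log2 ratios of the other sign for *CST4* (-0.077), *TNFAIP8* (-0.027), *ATF3* (-0.31), *DDIT3* (-0.082) and *SESN2* (-0.11), and cells of low proliferation share, an alternative chosen after seeing the data, for *PLK1* (0.38) and *ATF3* (-0.036). The sign also differed in Ctrl for *DBF4* (0.0099), *ITGA5* (-0.061), *ELF3* (-0.034), *AKR1B10* (-0.24) and *AKR1C2* (-0.16), at 1-day for *CST4* (-0.48), *CEBPD* (-0.078), *DUSP10* (-0.14), *MMP10* (-1.20), *ELF3* (-0.091), *VEGFA* (-0.11), *DDIT3* (-0.092) and *G0S2* (-1.03), and at 3-day for *DDIT3* (-0.23). The causes were not tested. *CST4*, *MMP10* and *G0S2* were under 20 CPM in both groups at 1-day. Within 7-day, 738 of 1022 values of the 73 named genes past the fold stayed within the counting interval. In the other libraries, 51 of 216 values of these genes did, 151 moved out of it and 14 changed sign. Without the 10 cells of most *CXCL8*, also chosen after seeing the data, 243 of the 270 and 232 of the 257 genes remained past the fold.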
